A study of Mus musculus with 6 samples.

Results

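Genes that code for voltage-gated sodium, potassium and calcium channels and for their auxiliary subunits were followed on 6 mouse arrays. They were taken by symbol: those that begin with Scn and a digit, Kcn, Cacna, Cacnb, Cacng, or Hcn and a digit. The rule gave 139 of the 20659 named genes, with 192 probes. Of these, 136 code for proteins, and Kcnq1ot1, Kcnd3os and Kcnmb4os1 are RNA genes named after a channel. A further 3 RefSeq symbols that meet the rule, among them Scn3b and Scn9a, were not matched to a probe and are not analysed here. The symbol rule is wider than the name of the family. It also takes in 15 inward rectifiers (Kcnj) and 14 two-pore channels (Kcnk), which carry potassium currents but have no voltage sensor of the usual kind. No measured value was used to choose the genes.

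The labels describe 6 groups with 1 array each. MEF were primary fibroblasts from E13.5 embryos of the ICR strain. Fibroblasts of the same kind were treated with adenoviral supernatants in polybrene for 8 h on each of 2 successive days, and the labels call them neurons induced by Tet3 at 1, 3, 5 and 7 dpi. Tet3 is a dioxygenase that oxidises methylated cytosine in CpG sites. Part of the medium was replaced with neuronal medium containing 20 µM forskolin, which activates adenylyl cyclase, on days 3 and 5 after the second infection. The sources used here do not say whether the cells at 3 and 5 dpi were taken before or after those changes. Primary neurons of mouse embryos, labelled E13.5, were the reference. Brain region and strain were not stated for them. No group had a virus without Tet3, so infection, medium and Tet3 cannot be told apart.

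Voltage-gated channels open when the membrane depolarises. Sodium channels carry the upstroke of the action potential, potassium channels repolarise the membrane, and calcium channels admit the calcium that triggers transmitter release, contraction and gene expression. The pore lies in an alpha subunit, and auxiliary subunits set its trafficking and gating. Neurons and muscle are the best known users of these genes, and fibroblasts express some of them.

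Levels are the log2 values of the authors' deposited table, scaled so that every array has its 75th percentile at 0. A gene is represented by the probe with the highest mean over the 6 arrays. Levels are compared between arrays for 1 gene and never between genes. The scanner flags each spot as well above background or not. Where both spots were, a difference counts as measured, and where 1 was it is a bound ("at least"). A bound sets the dim array at the higher of its own value and the lowest signal well above background on that array. A gene was counted as higher or lower from a difference of 2-fold, which is 1 on the log2 scale. The ± after a difference is the array error from the scanner's error model for both spots, with a median of 0.204 over all genes. It covers the array and not the cells. With 1 array per group no test could be made, and every difference given here sets 1 array beside another. In RNA from whole cultures, fewer cells of a type and less RNA per cell cannot be told apart.

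Some facts of the whole set bear on these results. MEF and 1 dpi were read in 1 scan, and 3, 5 and 7 dpi and neurons in another, so scan and time cannot be told apart in the comparisons of 3, 5 and 7 dpi or neurons with MEF. The comparisons of 1 dpi with MEF, of 7 with 5 dpi and of 7 dpi with neurons lie within a scan. The brightest of the Tet3 probes had a log2 level of -0.22 in MEF, 1.13, 1.74 and 2.57 at 1, 3 and 5 dpi, 0.07 on the array labelled 7 dpi and -0.72 in neurons. A second Tet3 probe was well above background at 1, 3 and 5 dpi and on no other array. The Tet3 signal of the last Tet3 array therefore lay within 2-fold of MEF, and the array is called "labelled 7 dpi" for that reason. Between 72.9% and 86.1% of probes were well above background.

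Promoters of a few genes that the results turn on are shown first, because Tet3 acts on CpG sites. They are the 250 bases before the RefSeq start, 5' to 3' on the gene's strand, from the GRCm38.p6 table, with each CpG in capitals. Kcnc1, Kcnj5 and Kcne1l had the largest differences or bounds above MEF on the array labelled 7 dpi, and Kcnj10 the largest below. Kcnc1 (chr7:46396218-46396467, + strand) has 30 CpG sites and Kcnj5 (chr9:32344345-32344594, - strand) has 7. Kcne1l (chrX:142306199-142306448, - strand) has 9, and Kcnj10 (chr1:172340960-172341209, + strand) has 17.
Kcnc1: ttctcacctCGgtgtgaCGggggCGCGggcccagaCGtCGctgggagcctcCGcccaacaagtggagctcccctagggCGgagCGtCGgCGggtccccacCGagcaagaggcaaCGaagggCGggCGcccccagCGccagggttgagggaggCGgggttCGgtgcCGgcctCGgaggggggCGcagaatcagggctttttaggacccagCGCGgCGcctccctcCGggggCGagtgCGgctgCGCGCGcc
Kcnj5: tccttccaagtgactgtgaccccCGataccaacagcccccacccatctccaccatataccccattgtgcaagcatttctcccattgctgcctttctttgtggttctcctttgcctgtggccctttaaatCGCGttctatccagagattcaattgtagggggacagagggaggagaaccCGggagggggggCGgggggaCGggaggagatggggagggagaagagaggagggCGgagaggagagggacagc
Kcne1l: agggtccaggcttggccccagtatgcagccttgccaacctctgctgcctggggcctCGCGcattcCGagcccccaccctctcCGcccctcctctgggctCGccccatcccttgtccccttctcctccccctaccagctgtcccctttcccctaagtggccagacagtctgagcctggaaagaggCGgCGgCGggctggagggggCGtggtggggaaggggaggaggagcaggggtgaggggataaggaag
Kcnj10: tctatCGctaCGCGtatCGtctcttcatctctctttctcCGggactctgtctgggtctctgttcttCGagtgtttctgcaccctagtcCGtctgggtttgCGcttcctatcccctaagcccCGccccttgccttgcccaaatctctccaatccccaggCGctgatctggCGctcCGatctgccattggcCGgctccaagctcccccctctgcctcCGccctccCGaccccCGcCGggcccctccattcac

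Promoter windows were found for 102 of the 139 genes. Their median CpG count was 11, against 6 over 27018 genes with a window, and 53.9% had 10 or more, against 40.2%. Where a gene had several windows, the one with the most CpG was used, in both sets. The 27018 genes were not limited to those on the array. The 28 genes that were higher on the array labelled 7 dpi than in MEF had a median of 12. The 7 that were lower had 17, and the 67 others had 10. The 61 that were higher in neurons than in MEF had 14, and the other 41 had 9. Short motifs were searched on both strands. The cyclic AMP response element TGACGTCA was in 0 windows of the channel genes and in 1.64% of all windows. The E-box CAGCTG was in 22 (21.6%, against 12.8%) and the E-box CAGATG in 12 (11.8%, against 14.2%). The left arm TTCAGCACC and the right arm GGACAGCGC of the REST site were in 1 window each (0.98%, against 0.292% and 0.329%). Methylation and binding were not measured on these arrays.

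The MEF array had 93 of the 139 well above background, and 88, 109, 113 and 102 were so at 1, 3, 5 and 7 dpi. Neurons had 126. In all, 77 were well above background on all 6 arrays and 8 on none, among them Cacng1, Hcn4, Kcne1, Scn10a and Scn7a. Neurons gave the highest value of 83 genes, the array labelled 7 dpi of 14, 3 dpi of 12, 5 dpi of 11, MEF of 8 and 1 dpi of 3. Another 8 genes were well above background on the neuron array alone: Kcnd3os, Kcnip2, Kcnj1, Kcnj14, Kcnj16, Kcnq1, Kcns2 and Kcnv1. The neuron array also had the largest share of all probes well above background (86.1%, against 75.5% on the MEF array). How many of all named genes were highest or seen only there was not counted, so these numbers have no background beside them. At the other end, 14 of the 77 channel genes stayed within 2-fold over the 6 arrays. They include Hcn2 (range 0.50 on the log2 scale), Kcna7 (0.29), Kcnd1 (0.51), Cacna1a (0.58) and Scn4a (0.63).

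**Figure D1:**
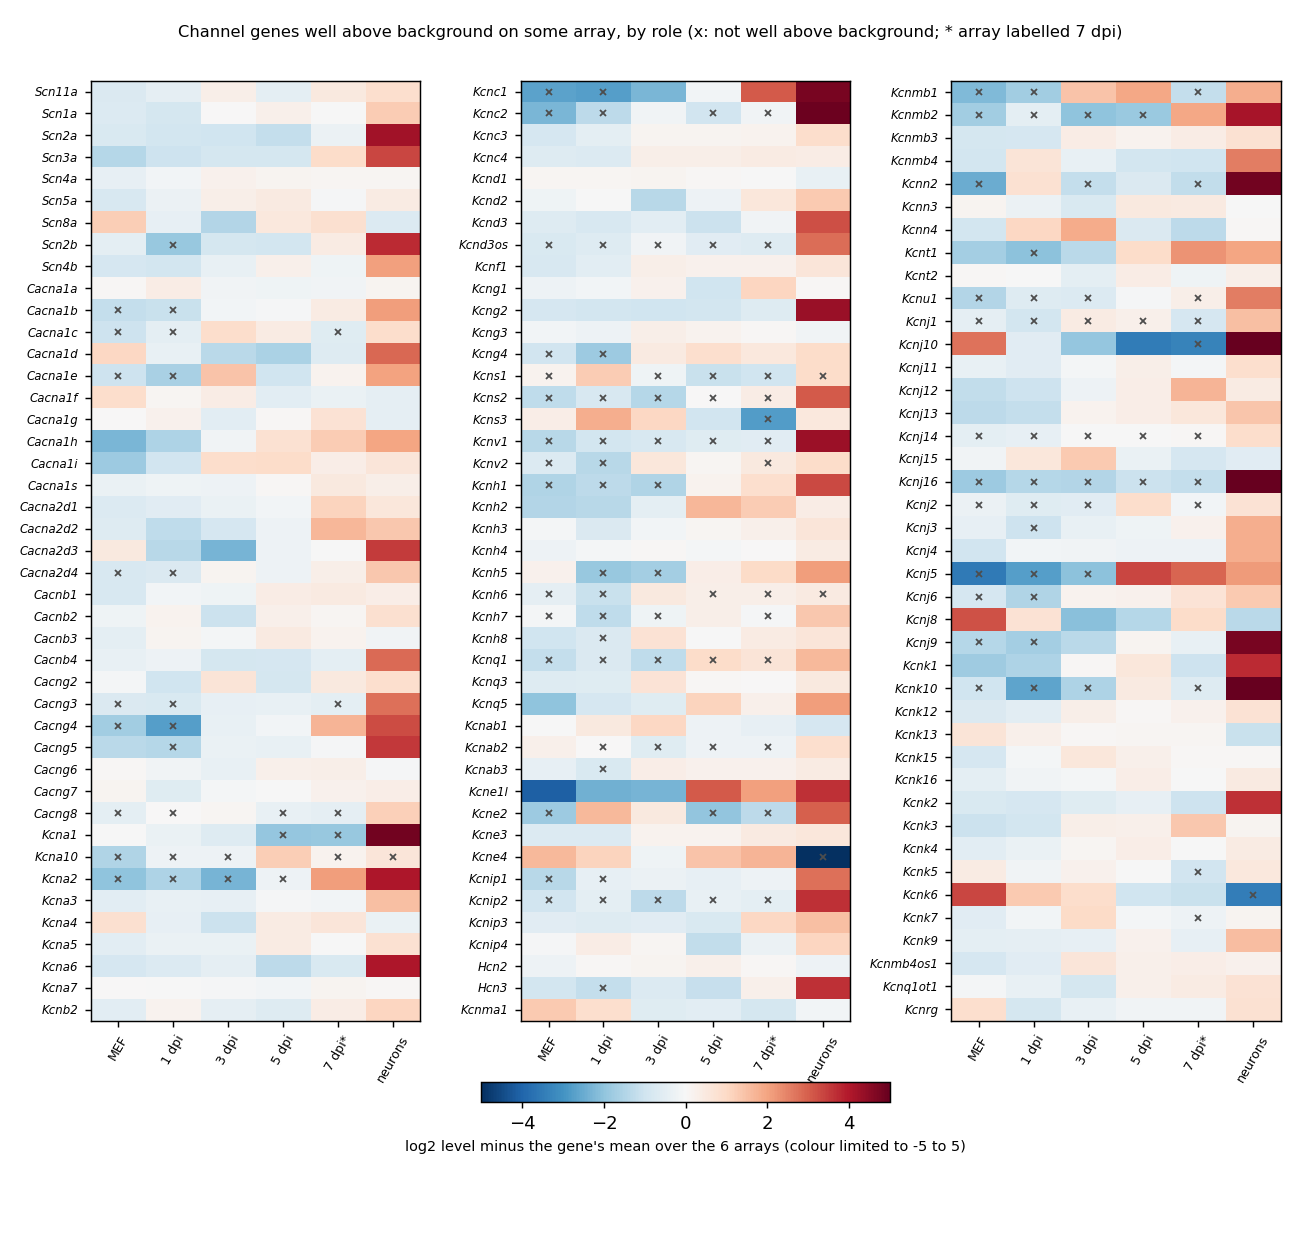
Each row is 1 of 127 channel genes that were well above background on some array, grouped by role, and each column is 1 of the 6 arrays. Colour is the log2 level minus the gene's own mean over the 6 arrays, and a cross marks an array on which the gene was not well above background. The neuron column holds most of the deepest red, and 83 genes are highest there when all 131 such genes are counted, 4 of which are not shown. The matching count over all named genes was not made.

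At 1 dpi, 8 of 93 evaluated channel genes were at least 2-fold higher than in MEF (8.60%, against 5.39% of all named genes) and 9 were lower (9.68%, against 5.98%). The higher genes included Kcnn4, Kcnn2, Kcne1l, Kcnmb4, Kcns3, Kcne2 and Kcnq5. The lower ones included Kcnj10, Kcnj8, Kcnk6, Cacna2d3, Kcnrg, Scn8a, Cacna1d and Kcna4. At 3 dpi, 28 of 110 were higher (25.5%, against 16.3%) and 13 lower (11.8%, against 9.82%), and at 5 dpi 27 of 114 were higher (23.7%, against 17.9%) and 11 lower (9.65%, against 8.21%). The balance of these middle times turned with the scaling. Higher genes made up 68.3% of those counted at 3 dpi and 71.1% at 5 dpi, and 37.9% and 37.5% after quantile normalization. All named genes moved in the same way, from 62.4% and 68.6% to 42.7% and 45.9%.

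On the array labelled 7 dpi, 38 of 106 evaluated channel genes were higher than in MEF (35.8%, against 17% of all named genes) and 8 were lower (7.55%, against 6.84%). The median difference was 0.65 on the log2 scale, against 0.16 over all genes. Higher genes made up 82.6% of those counted, and 65.5% after quantile normalization, under which 19 were higher. Over all named genes these shares were 71.4% and 48.6%. In all, 19 of the 38 and 6 of the 8 kept a difference of 2-fold under normexp background correction, quantile normalization and median centring alike. Those 19 include Kcne1l, Kcnc1, Kcnj5, Kcnt1, Cacna1h and Kcnip3.

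Neurons stood furthest from MEF. There, 85 of 128 evaluated genes were higher (66.4%, against 30.1% of all named genes) and 9 were lower (7.03%, against 16.1%), with a median difference of 1.62 against 0.25 over all genes. Under quantile normalization 53 were higher and 14 lower, and 51 of the 85 kept 2-fold under the 3 scaling alternatives. The median over all genes itself moved from 0.25 to -0.06 with quantile normalization and to -0.18 with median centring.

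Within the second scan, 20 of 109 evaluated genes were higher on the array labelled 7 dpi than at 5 dpi (18.3%, against 5.88% of all named genes) and 4 were lower (3.67%, against 4.66%). Set against neurons, 10 of 127 were higher on that array (7.87%, against 14%) and 55 were lower (43.3%, against 19.5%). The background-corrected alternative, normexp, left 9 higher and 2 lower than at 5 dpi. Of the 20, 9 kept 2-fold under the 3 scaling alternatives, among them Kcnc1, Kcnj8, Cacna2d2, Scn3a, Kcnip3, Kcnt1 and Cacna2d1. These are calls of the brightest probes. Another Kcnip3 probe differed from 5 dpi the other way (-0.45 on the log2 scale), and another Cacna2d1 probe by less than 2-fold (0.88).

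Of the channel genes, 67.6% had a mean log2 level under -3, against 39.5% of all named genes, and dim genes passed 2-fold more often. The shares were therefore also set out within dim genes and within brighter ones, a split chosen after the arrays had been described. On the array labelled 7 dpi, 49.2% of dim channel genes were higher than in MEF (39.1% of all dim genes) and 17.8% of brighter ones (8.26%), while 9.84% (7.2%) and 4.44% (6.69%) were lower. In neurons, 77.1% (57.8%) of the dim and 46.7% (16.3%) of the brighter were higher, and 3.61% (6.86%) and 13.3% (20.8%) were lower. For genes higher than in MEF at 3 and 5 dpi, the dim channel share lay at or under the background, and the brighter share above it. Dim shares that were higher than in MEF were 10.4% (9.62%), 29.2% (30.4%) and 29.0% (34.6%) at 1, 3 and 5 dpi, and brighter shares were 6.67% (3.94%), 20.0% (9.97%) and 15.6% (10.1%). Shares that were lower came to 10.4% (8.08%), 9.23% (9%) and 13.0% (7.27%) of dim genes and 8.89% (5.26%), 15.6% (10.2%) and 4.44% (8.65%) of brighter ones. From 5 to 7 dpi, 26.2% (10.3%) of dim and 6.82% (3.98%) of brighter genes were higher, and 3.08% (7.09%) and 4.55% (3.62%) were lower. Against neurons, the array labelled 7 dpi had 6.10% (7.48%) of dim and 11.1% (17.1%) of brighter genes higher, and 53.7% (33.7%) and 24.4% (12.7%) lower.

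**Figure D2:**
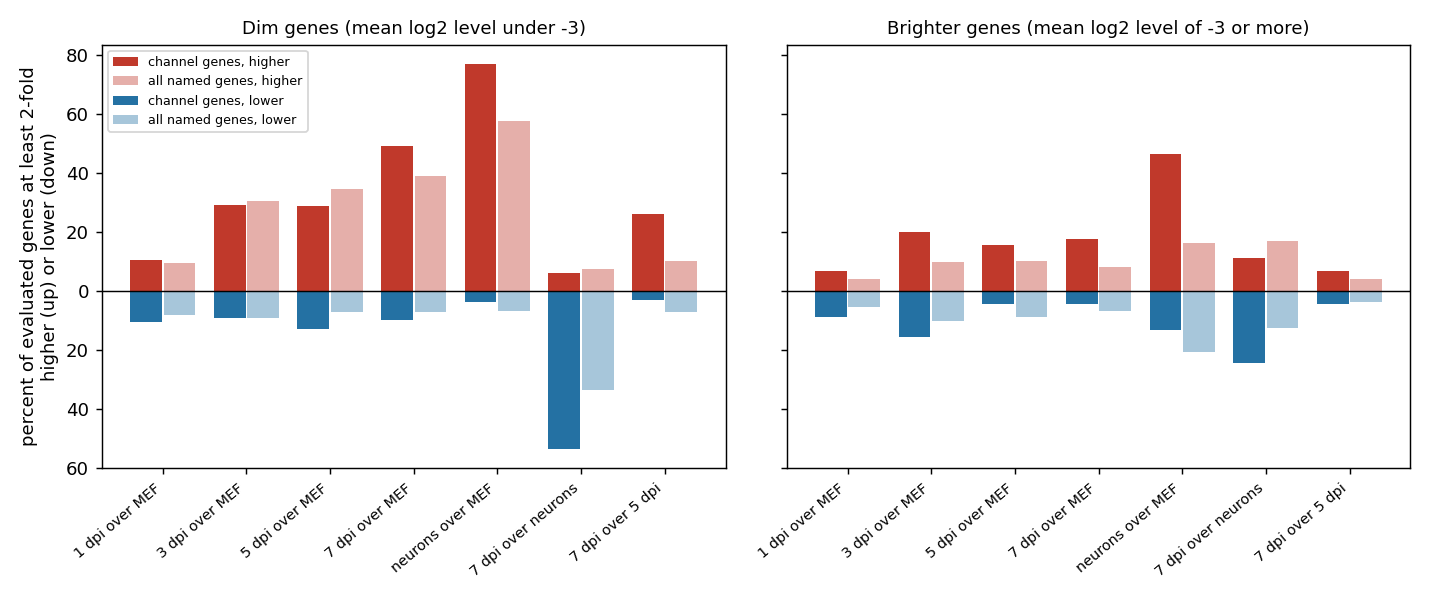
Bars give the percent of evaluated genes that were at least 2-fold higher (up) or lower (down) in each of the 7 comparisons, for channel genes (dark) and all named genes (light), with dim genes on the left and brighter genes on the right. In neurons over MEF the channel share that was higher exceeds the background in both panels (77.1% against 57.8% and 46.7% against 16.3%). At 3 and 5 dpi over MEF the dim channel share that was higher lies at or under it.

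Among sodium channel alpha subunits, Scn3a is the form known from embryonic and neonatal brain. It had log2 levels of -5.25 in MEF, -4.87, -4.69, -4.69 and -2.91 at 1, 3, 5 and 7 dpi, and -0.49 in neurons. The 4 earlier arrays lie together, the array labelled 7 dpi lies above them, and neurons lie highest. The difference was 5.06-fold from MEF (2.34 ± 0.24) and 3.45-fold from 5 dpi (1.79 ± 0.22), and neurons were 27.0-fold above MEF. A second probe of the gene was also higher at 7 dpi (-1.94, against -6.44 in MEF, where it was not well above background). The third probe was well above background in neurons alone.

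Scn2a, its neighbour on chromosome 2 and a main sodium channel of the adult forebrain, did not follow. Its levels were -2.44, -2.61, -2.67, -2.88 and -1.97 from MEF to 7 dpi, and 2.51 in neurons. The fibroblast-derived arrays lie within 2-fold of each other, and neurons lie 30.9-fold above MEF and 22.2-fold above the array labelled 7 dpi. These are values of the brightest Scn2a probe. Over its probes the difference of the array labelled 7 dpi from neurons ran from -4.67 to -0.91 on the log2 scale. Scn8a, which carries current at the axon initial segment, read by its brightest probe 1.79 in MEF, 0.16, -0.88, 1.1 and 1.36 at 1 to 7 dpi, and -0.14 in neurons. By that probe it was 6.37-fold below MEF at 3 dpi and 1.34-fold below at 7 dpi, while another probe differed from MEF by 0.04 at 3 dpi. In neurons the 3 probes of Scn8a disagree in direction, with 3.79-fold below MEF by the brightest and differences of 1.53 and at least 1.01 above by the others. Of the 7 alpha subunits that could be evaluated at 7 dpi over MEF, Scn3a and Scn11a were higher and none was lower. In neurons 5 were higher and Scn8a was lower. Over all named genes, 17% were higher and 6.84% lower at 7 dpi, and 30.1% and 16.1% in neurons.

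Beta subunits, which are adhesion molecules and set gating, were higher in neurons for Scn2b (18.6-fold) and Scn4b (7.34-fold). Scn2b was at -5.42 in MEF, -6.81 (not well above background), -5.81, -5.86 and -4.51 at 1 to 7 dpi, and -1.20 in neurons. No beta subunit differed 2-fold between the array labelled 7 dpi and MEF, while Scn2b was 2.56-fold above 5 dpi.

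Among calcium channel alpha1 subunits, Cacna1g, Cacna1h and Cacna1i form the T-type, which opens at low voltage. Cacna1h had levels of -3.61 in MEF, -2.84, -1.47, -0.56 and -0.03 at 1 to 7 dpi, and 0.65 in neurons. It was 11.9-fold above MEF at 7 dpi (3.58 ± 0.21), and each Tet3 array lies above the one before. Its second probe differed less than 2-fold (0.89), so the 2 probes do not give 1 size.

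Cacna1i, another T-type gene, was at -0.84, 0.02, 1.85, 1.87 and 1.29 from MEF to 7 dpi and at 1.58 in neurons. From 3 dpi on it lay near the neuron value, 4.39-fold above MEF at 7 dpi and 1.22-fold below neurons. A second, dimmer probe was also higher at 7 dpi than in MEF (1.67) but lay further below neurons (-2.44). The third T-type gene, Cacna1g, stayed between -0.98 and 0.27 on the 6 arrays and was 1.61-fold above MEF at 7 dpi.

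The high-voltage genes differed in timing. Cacna1b, the N-type pore of presynaptic terminals, was not well above background in MEF (-6.61) or at 1 dpi (-6.50) and read -5.56, -5.46 and -5.01 at 3 to 7 dpi and -3.30 in neurons. The array labelled 7 dpi was at least 3.01-fold above MEF and 3.27-fold below neurons. Cacna1e, the R-type pore, peaked at 3 dpi among the Tet3 arrays: -6.65 and -7.27 in MEF and at 1 dpi, both not well above background, then -4.18, -6.62 and -5.44, and -3.60 in neurons. Cacna1c, an L-type pore of heart and brain, was well above background at 3 dpi (-4.97), 5 dpi (-5.45) and in neurons (-4.96) alone.

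Cacna1d, an L-type pore of neurons and endocrine cells, went the other way: -2.72 in MEF, -4.13, -5.10, -5.33 and -4.41 at 1 to 7 dpi, and -0.90 in neurons. Every Tet3 array lies below MEF and neurons lie above. It was 3.23-fold below MEF at 7 dpi by this probe and 3.54-fold above in neurons, and a second probe differed by -0.27 and 1.23. Cacna1f, the L-type pore best known from the retina, was at -4.16, -4.93, -4.65, -5.56 and -5.37 from MEF to 7 dpi and -5.49 in neurons.

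The alpha2delta subunits carry the pore to the membrane and bind gabapentin in some forms. Cacna2d2 had levels of -2.75, -3.38, -2.97, -2.38 and -0.47 from MEF to 7 dpi and -0.76 in neurons. The array labelled 7 dpi and neurons lie together above the other 4 arrays, with 4.86-fold over MEF (2.28 ± 0.21) and 3.76-fold over 5 dpi. Cacna2d1 also had its 2 highest values on those arrays, at -1.03, -0.93, -0.69, -0.50 and 0.76 and 0.22 in neurons, and was 3.46-fold above MEF. Both kept 2-fold at 7 dpi under each scaling alternative, and both lay within 2-fold of neurons.

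Cacna2d3 did not: it was at -1.97 in MEF, -3.83, -4.78, -2.69 and -2.45 at 1 to 7 dpi, and 1.04 in neurons, 8.05-fold above MEF. The beta subunits sit inside the cell and release the pore from retention. In neurons 3 of 4 were higher than in MEF, against 30.1% of all named genes. On the array labelled 7 dpi it was 1 of 4, against 17%. Cacnb1 was 2.40-fold above MEF at 7 dpi (1.26 ± 0.23, 0.66 after quantile normalization), and Cacnb4 was 9.18-fold above MEF in neurons and 9.86-fold lower on the array labelled 7 dpi than in neurons.

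Gamma subunits include the partners of glutamate receptors known as TARPs. Cacng4 was not well above background in MEF (-7.07) or at 1 dpi (-8.10) and read -5.70, -5.47 and -3.65 at 3 to 7 dpi and -2.08 in neurons. It was at least 7.72-fold above MEF at 7 dpi and 3.54-fold above 5 dpi. Its chromosome 11 neighbour Cacng5 was at -6.03, -6.08 (not well above background), -5.0, -5.06 and -4.73, and at -1.13 in neurons, 29.9-fold above MEF. Cacng1, the skeletal muscle gamma subunit in the same cluster, was well above background on no array.

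Potassium channel alpha subunits held large bounds. Kcnq5, a pore of the M current that limits repetitive firing, was at -4.71, -3.53, -3.29, -1.56 and -2.43 from MEF to 7 dpi and at -0.58 in neurons. It was already 8.88-fold above MEF at 5 dpi (3.15 ± 0.22) and 4.86-fold at 7 dpi. Kcnq3, another M-current gene, was 1.58-fold above MEF at 7 dpi and 2.5-fold at 3 dpi.

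Kcnc1 belongs to the family that lets neurons fire fast. Its levels were -7.09 and -7.16 in MEF and at 1 dpi, both not well above background, then -6.69, -4.55 and -1.35, and 0.33 in neurons. The array labelled 7 dpi was at least 38.0-fold above MEF and 9.21-fold above 5 dpi (3.20 ± 0.22). All 3 Kcnc1 probes were higher there than in MEF, by 5.25, 2.91 and 1.71 on the log2 scale, the first and last as bounds.

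Kcnc2, its close relative, was well above background at 3 dpi (-6.43) and in neurons (-1.36) alone, and was at least 26.1-fold lower on the array labelled 7 dpi than in neurons. Of the Shaker genes, Kcna2 was well above background on the array labelled 7 dpi (-4.66) and in neurons (-2.71) and not on the 4 others (-8.78, -8.30, -9.09 and -7.01). It was at least 3.84-fold above MEF at 7 dpi. The other Shaker genes of brain did not follow it. Kcna1 was at -5.07, -5.38 and -5.68 in MEF and at 1 and 3 dpi, not well above background at 5 and 7 dpi (-6.96 and -6.93), and at -0.24 in neurons. Kcna6 was at -3.41, -3.25, -3.06, -3.91 and -3.34, and at 1.45 in neurons, 29.0-fold above MEF. Kcna1 and Kcna6 are neighbours on chromosome 6, as Kcna2 and Kcna3 are on chromosome 3.

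Kcna4, an inactivating Shaker gene, was lower at 3 dpi and near the MEF level at 7 dpi: 1.87, 0.67, -0.03, 1.49 and 1.65, and 0.71 in neurons. Kcnd3, an A-type pore, stayed between -2.33 and -1.44 on the fibroblast-derived arrays and was at 1.95 in neurons, 14.4-fold above MEF.

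Silent subunits form no channel alone and modify the pores they join. Kcns3 was at -3.28 in MEF, -1.80, -2.57 and -4.56 at 1, 3 and 5 dpi, not well above background at 7 dpi (-6.41) and at -3.07 in neurons. It was 2.80-fold above MEF at 1 dpi and at least 6.90-fold below at 7 dpi. Kcng1 was at -5.42, -5.30, -4.94, -6.17 and -4.09 and at -5.14 in neurons, 4.24-fold above 5 dpi on the array labelled 7 dpi. Another Kcng1 probe gave the opposite sign there (-0.83, a bound). Kcng2 lay between -6.19 and -5.84 on the 5 fibroblast-derived arrays and at -0.88 in neurons by its brightest probe, while a second probe differed less than 2-fold. In total, 3 of 6 evaluated silent genes were higher at 7 dpi over MEF (17% of all named genes) and 1 was lower (6.84%). After quantile normalization, however, 0 were higher and 1 was lower.

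Kcnh2, the pore of the rapid delayed rectifier of heart, was at -5.48, -5.38, -4.50, -2.33 and -2.73 from MEF to 7 dpi and at -3.63 in neurons. It was 8.90-fold above MEF at 5 dpi (3.15 ± 0.26) and 6.74-fold at 7 dpi, and it read 1.87-fold above neurons there. Kcnh8 was at -6.42, -6.13 (not well above background), -4.69, -5.43 and -5.02, and at -4.81 in neurons. Kcnh1 was well above background from 5 dpi (-6.13 and -5.48, and -3.01 in neurons).

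The auxiliary subunit gene Kcne1l had the largest measured difference from MEF on the array labelled 7 dpi. It codes for a single-pass protein of the Kcne family that associates with potassium channel pores. Levels were -5.54 in MEF, -3.86, -3.78, 1.61 and 0.61 at 1 to 7 dpi, and 2.21 in neurons. The values at 1 and 3 dpi lie between MEF and the 3 other arrays, among which 7 dpi is the lowest. The array labelled 7 dpi was 71.0-fold above MEF (6.15 ± 0.26) and 5 dpi was 142-fold above (7.15 ± 0.26). A second probe gave a smaller step, from -3.54 in MEF to -1.76 at 7 dpi and -1.28 in neurons.

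Kcne4, which inhibits some Kcnq and Kcna pores, was at 0.72, 0.24, -1.09, 0.55 and 0.81 from MEF to 7 dpi and not well above background in neurons (-6.53). The array labelled 7 dpi was at least 163-fold above neurons, the largest such bound in this direction among the channel genes. A dimmer second probe of Kcne4 read -4.96 in MEF, -4.18 at 7 dpi and -5.06 in neurons. Kcne2, another member, was well above background at 1 dpi (-5.24), 3 dpi (-6.39) and in neurons (-3.87) alone. Kcnip3, a calcium sensor that binds Kcnd channels and also DNA, was at -0.89, -1.0, -0.90, -1.1 and 0.68 and at 1.16 in neurons. It was 2.98-fold above MEF and 3.45-fold above 5 dpi by its brightest probe. However, a second, dimmer probe differed from MEF by -0.51 on the log2 scale, and the lowest difference from 5 dpi over its probes was -0.45. Kcnip4 was at -3.45, -3.02, -3.29, -4.61 and -3.69 and at -2.34 in neurons.

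**Figure D3:**
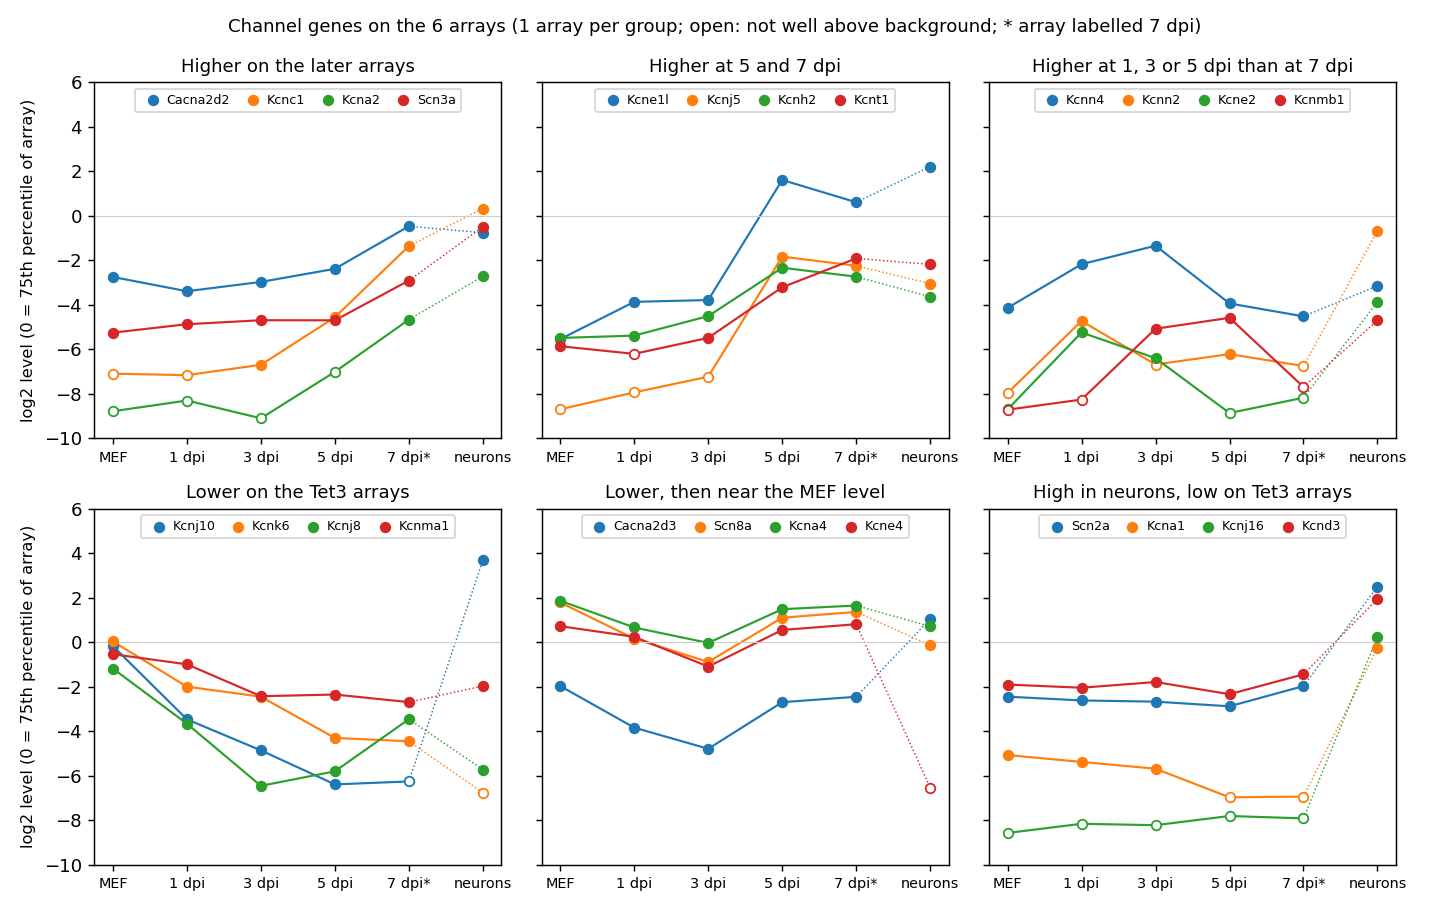
Each panel shows 4 channel genes on the 6 arrays, with the log2 level on the vertical axis and 1 array per point, and open points were not well above background. Kcna2 and Kcnc1 are highest among the fibroblast-derived arrays on the one labelled 7 dpi (-4.66 and -1.35), Kcnj10 reads -0.17 in MEF and -6.25 there, and Scn2a stays at or under -1.97 outside neurons.

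Hcn channels open on hyperpolarisation and carry the pacemaker current. Hcn3 was at -6.40, -6.68 (not well above background), -6.17, -6.63 and -5.24, and at -1.85 in neurons, 23.5-fold above MEF. Hcn2 was within 2-fold over the 6 arrays, between 3.85 and 4.35.

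Calcium- and sodium-activated potassium channels gave early differences as well as late ones. Kcnt1, a sodium-activated pore, was at -5.86, -6.20 (not well above background), -5.48, -3.21 and -1.91 from MEF to 7 dpi and at -2.18 in neurons. It was 15.4-fold above MEF at 7 dpi (3.94 ± 0.28) and within 1.2-fold of neurons. Kcnn4, an intermediate-conductance pore of blood and connective tissue cells, was highest at 3 dpi: -4.13, -2.17, -1.34, -3.93 and -4.51, and -3.14 in neurons. Kcnn2, a small-conductance pore of neurons, was well above background at 1 dpi (-4.72), 5 dpi (-6.21) and in neurons (-0.67) and read -7.96, -6.68 and -6.75 in MEF and at 3 and 7 dpi.

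The BK pore gene Kcnma1 was lower on the Tet3 arrays. Its brightest probe was at -0.53 in MEF, -0.99, -2.42, -2.35 and -2.69 at 1 to 7 dpi, and -1.97 in neurons, 4.45-fold below MEF at 7 dpi and 2.70-fold below in neurons. Its 2 other probes differed by -0.75 and -0.06 at 7 dpi and were higher in neurons, by 1.99 and 2.44, so the direction in neurons depends on the probe. Of its beta subunits, Kcnmb4, the neuronal form, was at -2.71, -1.14, -2.18, -2.72 and -2.81 and at 0.76 in neurons. Kcnmb1, the smooth muscle form, was well above background at 3 dpi (-5.07), 5 dpi (-4.58) and in neurons (-4.70), and not at 7 dpi (-7.69). Kcnmb2 was well above background on the array labelled 7 dpi (-5.04) and in neurons (-2.85) alone.

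Inward rectifiers set the resting potential. Kcnj10, the glial rectifier that clears potassium, had the largest bound below MEF. It was at -0.17 in MEF, -3.46, -4.86 and -6.39 at 1, 3 and 5 dpi, not well above background at 7 dpi (-6.25), and at 3.69 in neurons. It was 9.77-fold below MEF at 1 dpi (array error 0.21), at least 59.4-fold below at 7 dpi, and 14.5-fold above MEF in neurons. The array labelled 7 dpi was at least 864-fold below neurons. Kcnj16, which pairs with Kcnj10, was well above background in neurons alone (0.25), at least 116-fold above MEF. Kcnj9, the chromosome 1 neighbour of Kcnj10, was at -6.36 and -6.63 in MEF and at 1 dpi, both not well above background, then -6.25, -4.80 and -5.30, and -0.19 in neurons.

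Kcnj8, the pore of a vascular ATP-sensitive channel, was at -1.18, -3.66, -6.45, -5.80 and -3.46 from MEF to 7 dpi and at -5.72 in neurons. It was 38.6-fold below MEF at 3 dpi and 4.83-fold below at 7 dpi, which is 5.07-fold above 5 dpi. Kcnj5, a G protein-gated rectifier of heart and brain, was not well above background in MEF or at 1 and 3 dpi (-8.69, -7.93 and -7.22). It then read -1.83 at 5 dpi, -2.24 at 7 dpi and -3.04 in neurons, at least 20.5-fold above MEF at 7 dpi and 1.74-fold above neurons. Kcnj12, a strong rectifier of muscle and brain, was at -5.44, -5.24, -4.46, -3.88 and -2.51 and at -3.79 in neurons, 7.63-fold above MEF and 2.44-fold above neurons at 7 dpi. Kcnj13, a weak rectifier of epithelia, was at -5.71, -5.60, -4.24, -4.07 and -3.83, and at -3.03 in neurons.

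Two-pore channels pass a leak current. Kcnk6 was at 0.04 in MEF, -1.99, -2.45, -4.30 and -4.45 at 1 to 7 dpi, and not well above background in neurons (-6.76). It was 22.4-fold below MEF at 7 dpi (array error 0.23) and at least 96.2-fold below in neurons. Kcnk3, an acid-sensitive leak channel, was at -4.54, -4.38, -3.15, -3.22 and -2.12 and at -3.31 in neurons, 5.34-fold above MEF at 7 dpi. Kcnk1 was highest at 5 dpi among the Tet3 arrays: -4.28, -4.06, -2.43, -1.95 and -3.52, and 1.21 in neurons. Kcnk13 was at 0.06, -0.32, -0.54, -0.49 and -0.49 and at -1.72 in neurons.

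The mechanosensitive pair Kcnk2 and Kcnk10 was highest in neurons. Kcnk2 was at -3.60, -3.68, -3.45, -3.24 and -3.89 and at 0.79 in neurons, 21.1-fold above MEF. Kcnk10 was well above background at 5 dpi (-5.22) and in neurons (-0.25), at least 2.60-fold above MEF at 5 dpi and at least 81.7-fold in neurons. Outside these groups, Kcnrg, a soluble regulator of potassium channels, was at -3.83, -5.55, -5.01, -4.85 and -4.83 and at -3.89 in neurons. It lies at the 2-fold threshold at 7 dpi, and a second probe differed the other way (0.67).

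**Figure D4:**
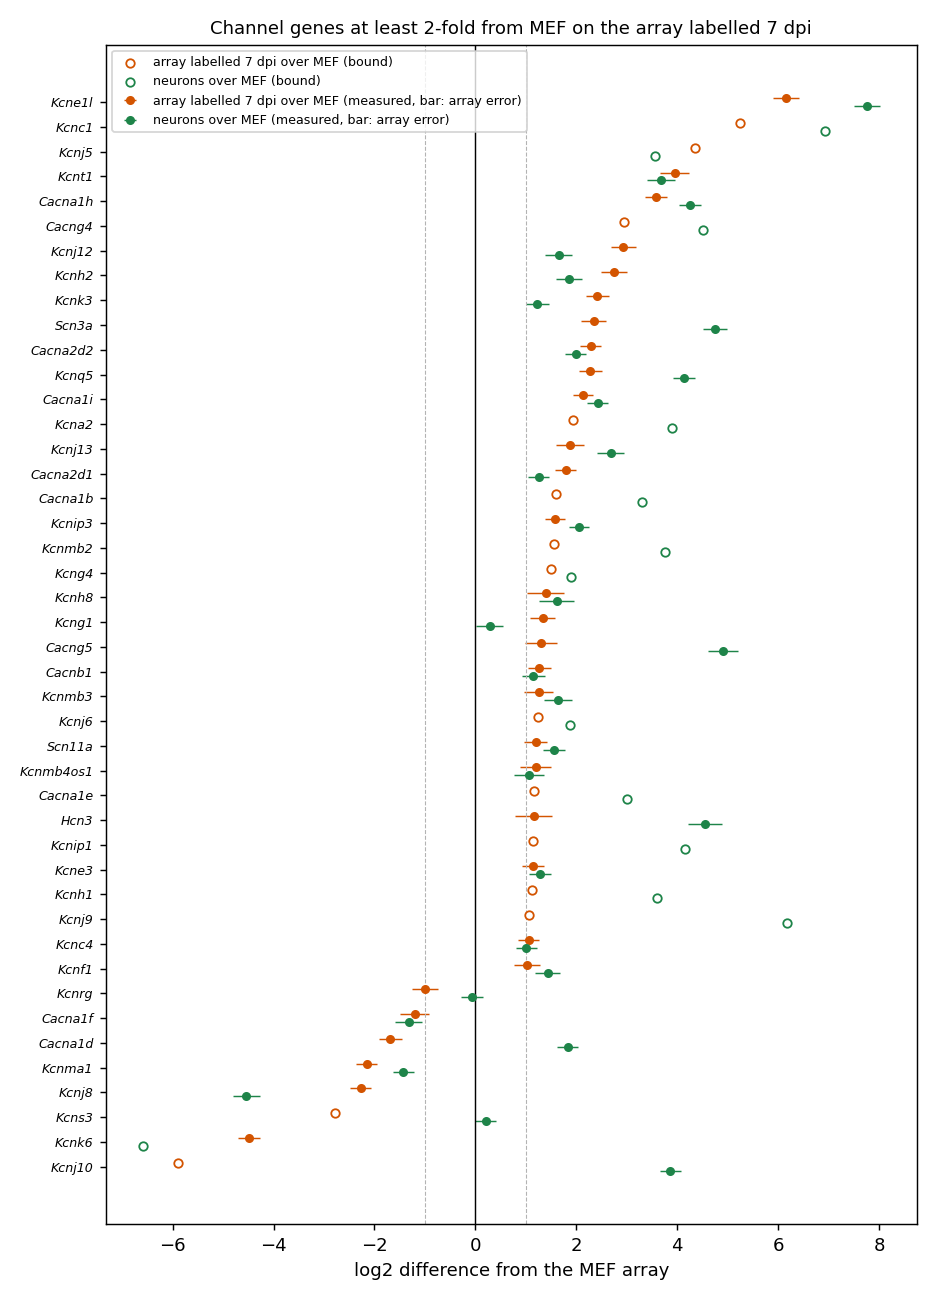
Points give the log2 difference from the MEF array for 44 channel genes that were at least 2-fold from MEF on the array labelled 7 dpi (orange), 2 of the 46 being left out, with the value in neurons beside it (green). Bars are the array error of measured differences, and open points are bounds. By their brightest probes, Cacna1d and Kcnj10 lie at least 2-fold from MEF on opposite sides of 0 in the 2 comparisons, which share the MEF array. Another Cacna1d probe differed less than 2-fold at 7 dpi (-0.27).

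The largest bounds and differences below neurons were those of Kcnj10, Kcnj16 (at least 79.9-fold), Kcna1 (at least 56.9-fold), Kcnk10 (at least 56.4-fold), Kcnn2 (at least 42.1-fold), Kcnj9 (34.7-fold), Kcng2 (31.2-fold), Kcna6 (27.6-fold), Kcnk1 (26.6-fold) and Kcnc2. They span glial, neuronal and leak channels. The genes above neurons included Kcne4, Kcnj8, Kcnk6, Scn8a, Kcnj12, Kcnk13, Kcnk3, Cacna1g and Kcng1, from 2.06-fold to at least 163-fold. These are values of the brightest probes. For Scn8a the direction depends on the probe, as another probe put the array labelled 7 dpi below neurons (-1.57 on the log2 scale). Another Kcne4 probe differed less than 2-fold, and so did another Kcng2 probe, with the opposite sign (0.24). By role, 9 of 17 evaluated Kcna to Kcnd genes were lower and 0 higher, and of 4 evaluated calcium channel beta subunits 1 was lower. Over all named genes, 19.5% were lower and 14% higher, and 33.7% of dim genes were lower.

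**Figure D5:**
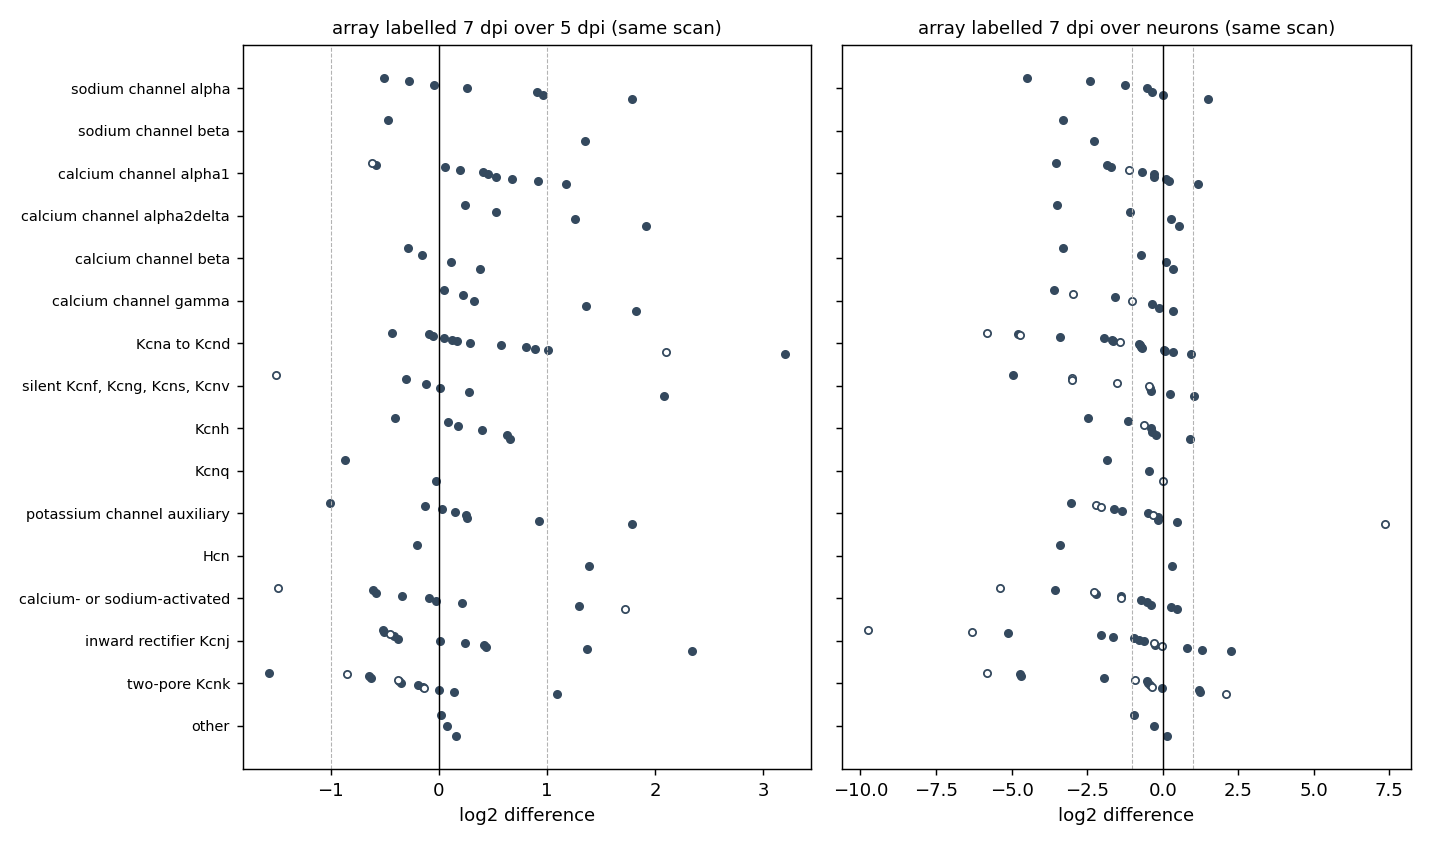
Each point is 1 channel gene, placed by role, with its log2 difference between the array labelled 7 dpi and 5 dpi (left) or neurons (right), all read in the same scan. Open points are bounds. Some channel genes are left out of both panels. Among those shown, Kcnc1 lies furthest right on the left panel (9.21-fold), and Kcnj10 furthest left on the right panel (at least 864-fold).

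Proteins that anchor, traffic or modulate these channels were followed as a list of 39 genes, of which 38 were on the array. The list was drawn up with earlier results of these arrays known. On the array labelled 7 dpi, 21 of 37 evaluated were higher than in MEF and 2 lower, with a median difference of 1.22, and in neurons 26 of 38 were higher and 1 lower, with a median of 1.67. The former count was 14 after quantile normalization, and the background is the 17% and 30.1% given above. At 7 dpi the highest were Ryr2, a calcium release channel (at least 3.05 on the log2 scale), Nalcn, the sodium leak pore (2.83), Lgi1, a secreted ligand (2.82), Ryr1 (2.78) and Pex5l, which traffics Hcn channels (2.55). Nrcam (-1.36) and Gem (-1.24) were the 2 lower ones.

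Nalcn had levels of -5.75, -6.33, -5.93, -4.86 and -2.92 from MEF to 7 dpi and of -1.91 in neurons, so the step came between 5 and 7 dpi. Fam155a and Unc80, which belong to the Nalcn complex, were higher by 2.29 and 1.38 at 7 dpi. In neurons the largest differences were those of Cntnap2 (6.60), Ryr2 (at least 5.79), Fgf13 (5.58), Sptbn4 (5.39) and Fam155a (5.26). Cntnap2 clusters Kcna channels along axons, Fgf13 binds sodium channels, and Sptbn4 holds channels at the initial segment. Their values at 7 dpi over MEF were 2.45, 1.72 and 1.88.

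Markers of several cell types moved with these genes. On the array labelled 7 dpi, 13 of 15 neuronal markers were higher than in MEF (median 3.31), and so were 14 of 15 evaluated skeletal and cardiac muscle markers (3.19). The log2 of the summed neuronal marker level was 2.71 in MEF, 4.87 at 7 dpi and 7.11 in neurons, and that of the muscle markers was 2.16, 4.64 and 2.5. Of the channel genes best known from skeletal muscle, Scn4a and Cacna1s stayed within 2-fold over the 6 arrays (ranges 0.63 and 0.82) and Cacng1 was well above background on none. Other channel genes known from muscle did differ, with Cacnb1 2.40-fold and Kcnj12 7.63-fold above MEF at 7 dpi. The partner gene Ryr1 read -6.02 in MEF and -3.24 at 7 dpi. Mylpf was not well above background at 7 dpi, and Tnnt2 and Myl1 were not in neurons.

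Macrophage markers were lower than in MEF for 14 of 14 evaluated genes on every other array, with a summed log2 level of 8.37 in MEF, 5.92, 4.41, 1.90 and 1.52 at 1 to 7 dpi, and 1.88 in neurons. Mrc1 and Laptm5 were not well above background at 7 dpi. This order is also that of Kcnj10 and Kcnk6 over the 5 fibroblast-derived arrays, apart from Kcnj10 at 7 dpi, where it is a bound. Astrocyte and radial glia markers were higher in neurons for 10 of 10 genes (median 4.36), with a summed log2 level between 1.94 and 2.34 on the other arrays and 7.10 in neurons, where Kcnj10 and Kcnj16 are highest.

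Fibroblast markers were lower in neurons for 10 of 10 genes and higher at 7 dpi for 2 of 10. At 3 dpi, 5 of 10 were lower than in MEF and 1 higher (median -1.12). By their brightest probes, Scn8a, Kcna4, Kcne4 and Kcnj8 were lowest there among the fibroblast-derived arrays. Another probe differed from MEF at 3 dpi by 0.04 for Scn8a and by -0.25 for Kcne4. Smooth muscle markers were higher than in MEF for 8 of 9, 10 of 10, 9 of 10 and 3 of 10 genes at 1 to 7 dpi, with a summed log2 level of 5.69 in MEF and 6.88, 7.16, 7.2 and 5.67 at those times. Endothelial markers were higher for 1 and lower for 2 of 6 evaluated genes at 7 dpi over MEF, and pericyte markers for 2 and 1 of 6. The part of these other cell types in the channel values was not tested.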

How the data were processed

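RNA from 6 samples was measured on 1 Agilent Cy3 array each. The submitters' processing notes name Agilent Feature Extraction 11.0.1.1. Its processed intensity, per the file headers, is the spot signal after background subtraction. The deposited log2 table of the authors has the 75th percentile of each array at 0, and its values correlated with those computed from the scanner signals at r of 0.999987 or more. How that table was made was not stated. Column medians ran from -3.30 (MEF) to -2.50 (neurons), so under this scaling the middle of the values lay higher on the later arrays. Whether the scaling, the scan or the cells gave this difference was not tested.

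Of 39429 probes, 27234 were given a symbol through the RefSeq accession on the array (GRCm38.p6 table). The probe with the highest mean was used for each of the 48 channel genes with several probes. Background flags were taken from the scanner files. An outlier spot touched Cacng7, Kcnip1 and Kcnj6. Counting was in Python 3.11.15 with pandas 2.3.3, and normexp in limma 3.58.1 with an offset of 50. The 2-fold calls for 7 dpi over MEF were tested on simulated data, which checks the calling rule and not the variation between cultures. No p-value was computed, since each group has 1 array, and the number of arrays limits the precision.

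The named genes are up to 20 higher and 10 lower for 7 dpi and neurons over MEF, 10 each way otherwise, genes whose probes disagree, further genes by role, and the 5 channel partners furthest each way. Channel genes, marker lists and partners were chosen with earlier results of these data known. The split into dim and brighter genes (log2 level of -3) was added later. Some channel genes are counted but not reported here by name.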

Additional observations from a re-analysis of the deposited data

Results flagged for a closer look

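Cacna1d and Kcnj10 were at least 2-fold from MEF in opposite directions in the comparison of 7 dpi and in that of neurons. For Cacna1d the log2 difference from MEF was -1.69 on the array labelled 7 dpi and 1.82 in neurons, by its brightest probe. Another Cacna1d probe differed from MEF by -0.27 at 7 dpi, which is less than 2-fold. For Kcnj10 it was -5.89, a bound, on the array labelled 7 dpi and 3.86 in neurons. The difference between the comparisons was not tested, and both share the MEF array.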

How the results depend on the processing

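The 14 counts (higher and lower, 7 comparisons) were recomputed under 8 alternatives. Of 112 values, 78 lay within 1.5 times the reported count and 34 did not. The scanner signals and median centring moved none that far. Of 325 single calls, 324 were also made from the scanner signals, 286 with median centring, 229 with quantile normalization, 202 with normexp and 299 with the mean over probes.

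With genes at a log2 level of -1 or more on 1 of the 2 arrays, the counts higher and lower were 0 and 4 for 1 dpi over MEF, 3 and 6 for 3 dpi, 4 and 3 for 5 dpi, 6 and 3 for 7 dpi, 5 and 21 for 7 dpi over neurons and 3 and 1 for 7 over 5 dpi, with 29 higher in neurons over MEF. Here fewer genes are counted. With normexp, 4, 8, 11 and 19 were higher than MEF at 1, 3, 5 and 7 dpi and 6 lower at 5 dpi, and 7 over 5 dpi gave 9 higher and 2 lower. With quantile normalization, 11, 12 and 19 were higher at 3, 5 and 7 dpi and 53 in neurons, and 20 were lower at 5 dpi and 14 in neurons. With both arrays well above background, 5, 17 and 24 were higher at 1, 5 and 7 dpi and 54 in neurons, and 2 lower in 7 over 5 dpi. With no background filter, 14 were lower at 1 dpi and 9 in 7 over 5 dpi. With the mean over probes, 5 were lower at 7 dpi over MEF. The cause of these moves was not tested.

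Single genes changed sign in 5 cases. With quantile normalization, neurons over MEF gave -0.052 for Kcnj11 and -0.33 for Kcnmb4os1. With the mean over probes, Kcnma1 gave 1.00 and Scn8a 0.92 in neurons over MEF, and Scn8a gave -0.74 for 7 dpi over neurons. After quantile normalization 17.8% of channel genes and 8.02% of all genes were higher at 7 dpi over MEF, 43.4% and 18.4% in neurons over MEF, and 18.5% and 6.54% in 7 over 5 dpi. No paired analysis was possible because each group has 1 array. No replicate could be left out for the same reason.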
